A study of Mus musculus with 4 samples.

Results

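The regions described here were stretches of DNA with few covered CpGs that carried little methylation in mature B cells of wild-type mice. The autosomes of the mm9 genome were divided into fixed tiles of 1 kb. A tile was kept when it held 2 to 5 distinct CpGs over the 4 libraries, had at least 20 reads summed over its CpGs in wild-type B cells, and had a pooled level under 30% there, that is, the summed methylated reads over the summed reads. These criteria chose 7420 tiles of 120565 CpG-poor tiles with enough reads in wild-type B cells, of 238387 CpG-poor tiles and of 421973 autosomal tiles with any covered CpG. The wild-type B cell level therefore chose the tiles and is given only as a description. All counts of CpGs, and the terms CpG-poor and CpG-dense, refer to CpGs covered in the libraries. The CpG density of the genome sequence itself was not examined, so a CpG-poor tile may hold further CpGs without reads.

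Methylation had been profiled by RRBS (reduced representation bisulfite sequencing), in which DNA is cut by restriction enzymes, treated with bisulfite and sequenced at its fragment ends. The 4 libraries, 1 per condition, came from Sca1-BCL6Δ B cells, wild-type B cells, Sca1-BCL6Δ HSPCs and wild-type HSPCs, and each held pooled DNA of 6 to 9 mice on a CBAxC57BL/6J background. B cells were sorted from peripheral blood as B220+ cells, and HSPCs (haematopoietic stem and progenitor cells) from bone marrow as Sca1+Lin- cells. Sca1-BCL6Δ mice carried a floxed Bcl6 cDNA driven by the Sca1 promoter, to be expressed in HSPCs, and a Cre recombinase at Cd79a that removes the transgene in cells of the B lineage, whereas wild-type mice were the controls. Per the submitters' methods text, 2 transgenic lines were made; which of them gave the pools, and the ages of the mice, are not given in the sources used here. Expression of the transgene, its removal and the identity of the sorted cells were not analysed here, because these libraries hold methylation alone. With no replicate library, each test below compared the reads of 2 libraries and not conditions, and variation between mice could not be set against any difference.

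Most CpGs of a mammalian genome that lie outside CpG islands are methylated. Stretches of CpG-poor DNA that stay low in methylation often mark enhancers and other sites bound by transcription factors, and a part of these differ between cell types. When blood stem and progenitor cells differentiate along the B lineage, some enhancers of B cell genes lose methylation. Bcl6, the factor encoded by the transgene, is a transcriptional repressor best known from germinal centre B cells.

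The low levels were not particular to B cells at most of the tiles, so they are called hypomethylated CpG-poor tiles here and not B cell sites. In Sca1-BCL6Δ B cells 3079 of the 7420 tiles had at least 20 reads. Their median level was 14.3% (quartiles 7.41% and 22.9%, highest 76.5%), and 2695 of them, or 87.5%, were under 30% (Wilson 95% interval over tiles 86.3 to 88.7%). In wild-type B cells the median over the 7420 tiles was 16.7%, a value fixed in part by the choice of tiles. In Sca1-BCL6Δ HSPCs 2255 tiles had enough reads, with a median of 15.0% and 83.6% under 30% (82.1 to 85.1%). In wild-type HSPCs 4360 tiles had enough reads, with a median of 19.4% and 72.9% under 30% (71.6 to 74.2%). Among all CpG-poor tiles with 20 reads, the medians were 95.2% for Sca1-BCL6Δ B cells, 94.5% for wild-type B cells, 92.0% for Sca1-BCL6Δ HSPCs and 76.0% for wild-type HSPCs. Of those tiles, 9.18%, 6.15%, 11.3% and 7.52% were under 30%, in the same order of libraries. The intervals cover counting of tiles only, and reads without molecular identifiers need not be separate molecules.

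**Figure D1:**
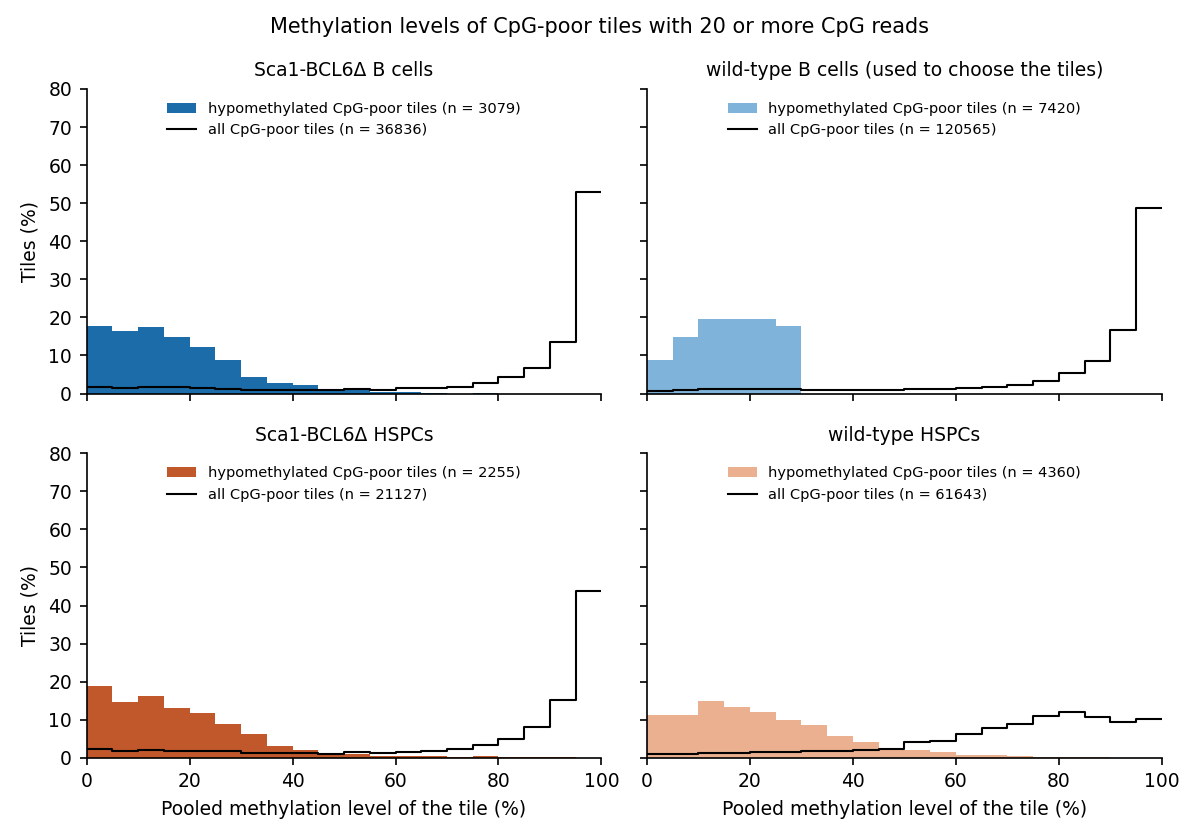
Share of tiles (y axis, %) by pooled methylation level (x axis, %, bins of 5 points) in each library, for tiles with 20 or more reads. Filled bars are the hypomethylated CpG-poor tiles and the black line is all CpG-poor tiles; the bars sit at the low end in all 4 libraries, with medians of 14.3%, 16.7%, 15.0% and 19.4%, whereas the line is highest at high levels.

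Depth differed between the libraries and set which tiles could be compared. The median tile had 16 summed reads from Sca1-BCL6Δ B cells, 41 from wild-type B cells, 13 from Sca1-BCL6Δ HSPCs and 22 from wild-type HSPCs. A summed read count takes a read once for each CpG it covers. Counted over CpGs more than 50 bp apart, where few reads are shared, the medians were 10, 26, 8 and 14 reads, and 71.4% of the tiles still had 20 reads in wild-type B cells. Without a single read were 250 tiles in Sca1-BCL6Δ B cells, 416 in Sca1-BCL6Δ HSPCs and 67 in wild-type HSPCs, and 1752 tiles (23.6%) had at least 20 reads in every library. The wild-type HSPC library was lower than the Sca1-BCL6Δ HSPC library at methylated CpGs. At 4549 CpGs with a level of 98% or more in B cells, the mean level was 96.0% in Sca1-BCL6Δ HSPCs and 84.8% in wild-type HSPCs. The B cell levels chose these CpGs and are not compared with the HSPC levels. The shares that rest on that library are therefore also given without it.

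The level in wild-type B cells went with the level in every other library. Tiles at 0 to 5% in wild-type B cells (656 tiles) had medians of 7.14% in Sca1-BCL6Δ B cells, 8.17% in Sca1-BCL6Δ HSPCs and 11.7% in wild-type HSPCs. The 1315 tiles just inside the limit, at 25 to 30%, had medians of 22.2%, 23.3% and 27.5% in the same 3 libraries, and 69.9% of them were under 30% in Sca1-BCL6Δ B cells. The 1236 tiles just outside it, at 30 to 35%, had medians of 28.6%, 28.6% and 31.5%, and 53.8% were under 30% in Sca1-BCL6Δ B cells. The limit thus cut through a continuous range of levels. Tiles read more deeply repeated more often: of the tiles with 20 to 40 reads in wild-type B cells, 83.0% were under 30% in Sca1-BCL6Δ B cells, against 86.9% of those with 40 to 80 reads and 94.7% of those with 80 or more. Their median levels in Sca1-BCL6Δ B cells fell along the same classes, at 16.7%, 15.0% and 11.8%. Depth and level thus went together, and their parts were not separated.

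**Figure D2:**
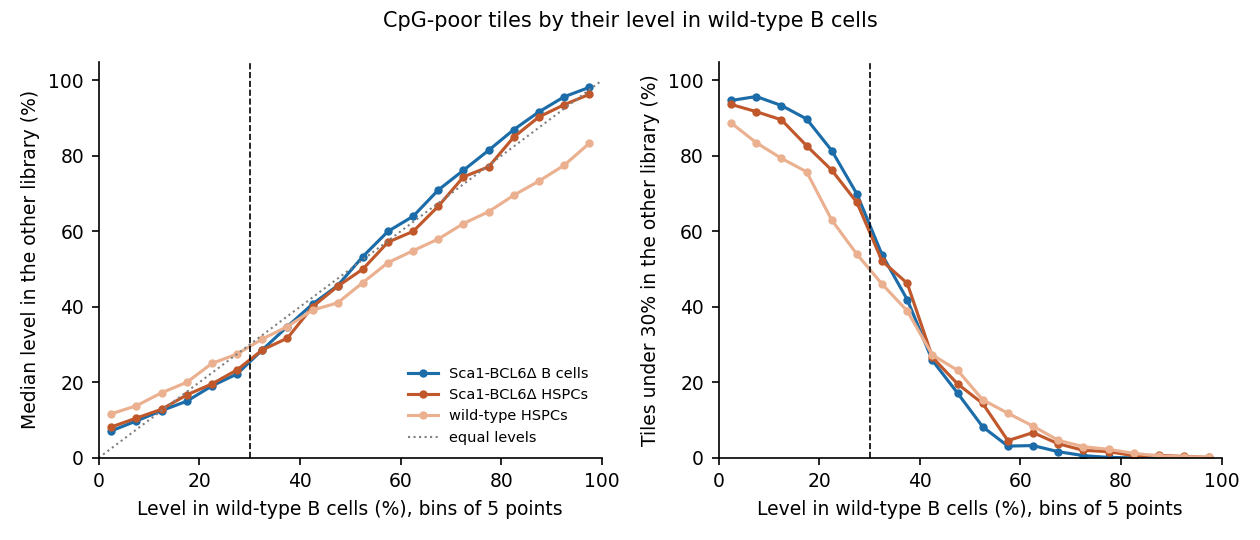
CpG-poor tiles grouped by their level in wild-type B cells (x axis, %, bins of 5 points). The left panel gives the median level in each other library (y axis, %) and the right panel the share of tiles under 30% there (y axis, %); the dashed line marks the limit of 30%, across which the medians and shares change without a step, at 22.2% and 28.6% in Sca1-BCL6Δ B cells on either side.

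Tiles with more covered CpGs were hypomethylated more often. Of the CpG-poor tiles with 2 CpGs 4.22% were hypomethylated, of those with 3 CpGs 5.40%, of those with 4 CpGs 7.44% and of those with 5 CpGs 10.3%. Levels changed less along this range: in Sca1-BCL6Δ B cells the medians over tiles with 20 reads in all 4 libraries were 13.3%, 15.4%, 13.0% and 12.2% in the same order. CpG-dense tiles (6 or more CpGs) under 30% in wild-type B cells, 22143 in number, were lower still, with medians of 8.26% for Sca1-BCL6Δ B cells, 9.57% for wild-type B cells, 9.09% for Sca1-BCL6Δ HSPCs and 11.5% for wild-type HSPCs. Those values, like the wild-type B cell values of the CpG-poor tiles, come from a choice by level.

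Many of the hypomethylated CpG-poor tiles bordered on CpG-dense tiles. A CpG-dense tile was the direct neighbour of 3098 of them (41.8%), against 10.5% of all CpG-poor tiles with enough reads in wild-type B cells. For 2577 (34.7%) that neighbour was itself under 30% in Sca1-BCL6Δ B cells, against 4.57% of all CpG-poor tiles, and 46.8% of the CpG-poor tiles in that position were hypomethylated. The share was 10.02% at a distance of 2 tiles and 3.02% beyond 50 tiles. The other large class lay alone: 3881 tiles (52.3%) had no CpG-dense tile within 2 tiles on either side, a position held by 83.6% of all CpG-poor tiles, of which 3.85% were hypomethylated.

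**Figure D3:**
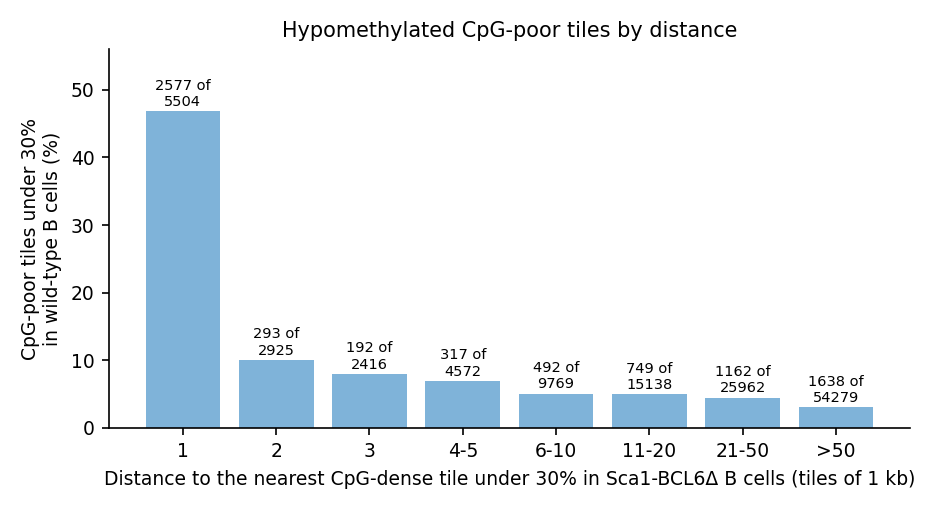
Share of CpG-poor tiles that were hypomethylated in wild-type B cells (y axis, %) by distance to the nearest CpG-dense tile under 30% in Sca1-BCL6Δ B cells (x axis, tiles of 1 kb). Numbers above the bars are hypomethylated tiles of all CpG-poor tiles; the share is 46.8% for direct neighbours and 10.02% or less from 2 tiles on.

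Medians in each library were lower beside CpG-dense tiles that were themselves low in Sca1-BCL6Δ B cells. Beside a low CpG-dense tile, the 694 tiles with 20 reads in every library had medians of 11.8% for Sca1-BCL6Δ B cells, 13.7% for wild-type B cells, 12.5% for Sca1-BCL6Δ HSPCs and 15.6% for wild-type HSPCs, and 76.4% were under 30% in all 4. The 855 tiles with no CpG-dense tile within 2 tiles had medians of 14.8%, 16.7%, 16.1% and 20%, and 61.6% were under 30% in all 4. The other 203 tiles had medians of 14.8%, 16.7%, 15.2% and 20%. Without the wild-type HSPC library, 87.7% of 754 tiles beside a low CpG-dense tile and 72.6% of 941 tiles with none within 2 tiles were under 30% in the other 3 libraries. These differences between positions were described and not tested.

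Along the chromosomes most tiles stood singly. Another hypomethylated tile adjoined 612 of them (8.25%), against 1.56% of all CpG-poor tiles with enough reads in wild-type B cells. Of the CpG-poor tiles in that position 32.5% were hypomethylated. There were 6808 single tiles, 283 runs of 2 adjacent tiles, 14 runs of 3 and 1 run of 4. That run of 4, chr11:103036001-103040000, was low in most of its values: its second tile had 0.00% of 16 reads in Sca1-BCL6Δ B cells, 16.7% of 54 in wild-type B cells, 31.3% of 16 in Sca1-BCL6Δ HSPCs and 39.3% of 28 in wild-type HSPCs. Its last tile had 0.00% of 29 reads, 10.3% of 39, 0.00% of 13 and 0.00% of 20, in the same order of libraries. Counted over CpGs more than 50 bp apart, the values of 0 in these 2 tiles allow levels of up to 21.4 to 60.0%. Its first tile had 50% in Sca1-BCL6Δ B cells, but over only 6 reads. The first runs of 3, by position, were chr1:19225001-19228000 and chr2:71375001-71378000, whose tiles had between 0 and 72 reads a library. The share of CpG-poor tiles that were hypomethylated lay between 5.28% on chromosome 16 and 7.65% on chromosome 11, so no autosome lacked them.

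CpGs of a tile were often, but not always, low together. Of tiles with at least 2 CpGs of 5 or more reads, 64.6% in Sca1-BCL6Δ B cells had every such CpG under 30%. The share was 57.8% in wild-type B cells, 62.7% in Sca1-BCL6Δ HSPCs and 45.6% in wild-type HSPCs. Over all CpG-poor tiles with enough reads in wild-type B cells it was 5.72%, 3.66%, 6.56% and 4.41%, in the same order. CpGs with 5 reads in the hypomethylated tiles numbered 12661, 22419, 10567 and 16294. The part of this in the shares was not tested. A CpG at 10% or less beside a CpG at 80% or more was found in 31, 144, 30 and 72 of the hypomethylated tiles with 2 such CpGs. These were 0.78%, 2.06%, 0.91% and 1.39% of them, against 0.57%, 0.76%, 0.56% and 0.89% of all CpG-poor tiles. The median range of levels within a hypomethylated tile was 14.3, 18.8, 13.3 and 18.9 percentage points in the same order of libraries. In all CpG-poor tiles it was 8.33, 10, 10 and 19.1 percentage points. A low wild-type B cell level chose the tiles, so the wild-type B cell values given here are a description. The CpGs of the median tile spanned 125 bp, and in 26.0% of the tiles CpGs more than 50 bp apart came down to 1 position.

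Of reads with at least 2 CpGs in these tiles, no CpG was methylated in 77.5% of those from Sca1-BCL6Δ B cells, 76.5% from wild-type B cells, 76.0% from Sca1-BCL6Δ HSPCs and 71.8% from wild-type HSPCs. Every CpG was methylated in 8.99%, 6.63%, 11.4% and 11.8% of the reads, and the rest were mixed. Low levels leave most reads without methylation whatever their arrangement, so these shares describe the tiles and test nothing. In CpG-poor tiles at 70% or more in wild-type B cells, by contrast, 89.8%, 90.1%, 86.9% and 70.5% of such reads had every CpG methylated.

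**Figure D4:**
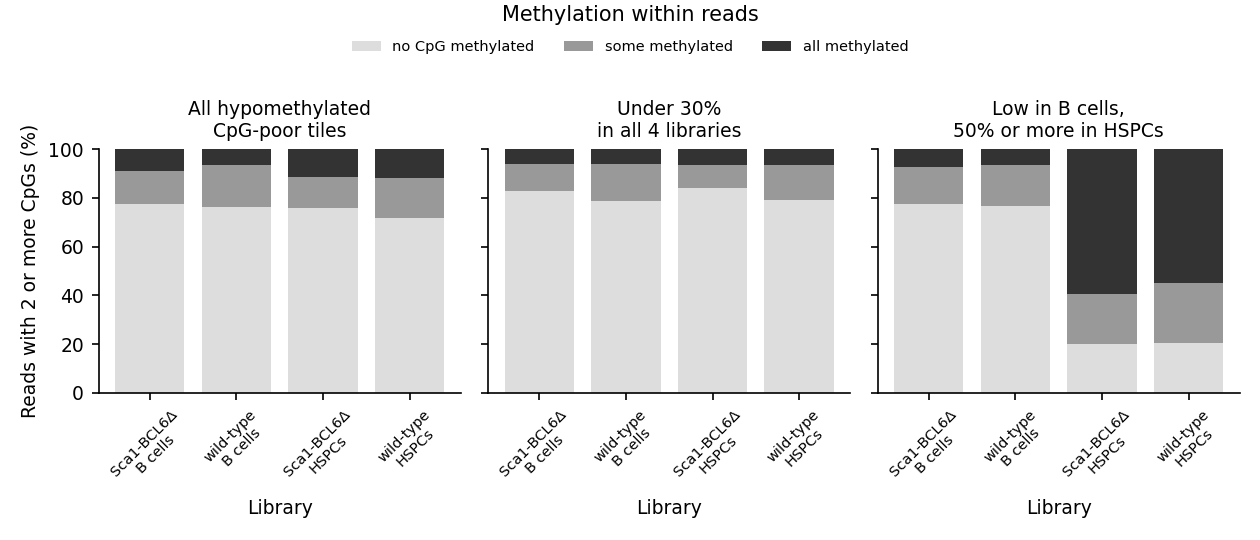
Reads with 2 or more CpGs (y axis, %) split into those with no, some or all of their CpGs methylated, in each library (x axis), for 3 sets of tiles. In the tiles chosen for high HSPC levels, 59.6% of Sca1-BCL6Δ HSPC reads and 55.1% of wild-type HSPC reads were fully methylated, against 7.24% and 6.48% in the 2 B cell libraries.

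Over the 1752 tiles with 20 reads in every library, 1184 were under 30% in all 4 libraries (67.6%, Wilson 95% interval 65.4 to 69.7%). Among all 13633 CpG-poor tiles with such reads, 8.68% were under 30% in all 4, and 57.0% were at 70% or more in all 4. Without the wild-type HSPC library, 1516 of 1926 hypomethylated tiles (78.7%) were under 30% in the other 3. Of the 1752 tiles with 20 reads in every library, 68 were at 30% or more in Sca1-BCL6Δ B cells alone. A further 102 were so in Sca1-BCL6Δ HSPCs alone and 208 in wild-type HSPCs alone. In 89 tiles both B cell libraries were under 30% and neither HSPC library was, and in 32 tiles only the wild-type B cell library used to choose them was.

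A B cell pattern in the strict sense was found at few tiles. Under 30% in both B cell libraries and at 50% or more in both HSPC libraries were 21 of the 1752 tiles (1.20%, 0.79 to 1.83%). With a minimum of 40 reads in place of 20 the share was 0.42%. Without the wild-type HSPC library, 40 of 1926 tiles (2.08%) were under 30% in both B cell libraries and at 50% or more in Sca1-BCL6Δ HSPCs. The reverse pattern, 50% or more in both B cell libraries and under 30% in both HSPC libraries, was held by 3 of all 13633 CpG-poor tiles, none of which could be among the tiles described here. The 21 tiles lay on 12 chromosomes, and 18 of them had no CpG-dense tile within 2 tiles. None of the 694 tiles beside a low CpG-dense tile had this pattern. Without the wild-type HSPC library 3 of 754 such tiles had it (0.40%), and 30 of 941 tiles with no CpG-dense tile within 2 tiles (3.19%). Since the pattern was chosen by level, the values of these tiles are a description.

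The 21 tiles ranged from 4.55 to 29.2% (median 18.2%) in Sca1-BCL6Δ B cells, from 5.56 to 29.8% (19.0%) in wild-type B cells, from 50 to 94.6% (70.4%) in Sca1-BCL6Δ HSPCs and from 53.6 to 86.4% (68.3%) in wild-type HSPCs. Of their reads with 2 or more CpGs, 77.6% of 290 from Sca1-BCL6Δ B cells and 76.7% of 386 from wild-type B cells had no methylated CpG, against 20% of 230 from Sca1-BCL6Δ HSPCs and 20.6% of 218 from wild-type HSPCs. Their depth was modest, with medians of 34, 54, 25 and 32 summed reads in Sca1-BCL6Δ B cells, wild-type B cells, Sca1-BCL6Δ HSPCs and wild-type HSPCs. In the exact conditional test of Sca1-BCL6Δ B cells against Sca1-BCL6Δ HSPCs described below, 19 of the 21 tiles were tested and 1 was called. An unadjusted p under 0.05 was found at 14. Over all autosomal tiles tested, 0.0861% were called and 3.68% had such a p. The levels of both libraries also chose the 21 tiles, so their counts are a description.

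**Figure D5:**
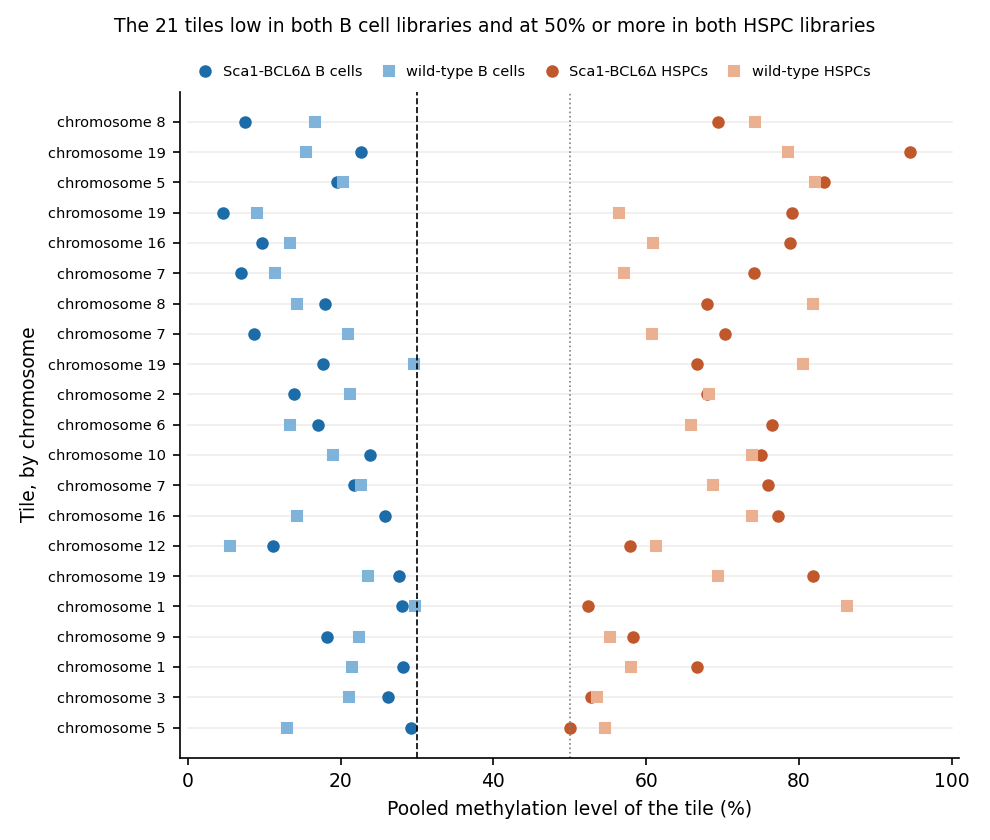
Pooled level (x axis, %) in the 4 libraries for each of the 21 tiles (y axis, labelled by chromosome) under 30% in both B cell libraries and at 50% or more in both HSPC libraries. Dashed and dotted lines mark the limits of 30% and 50% that chose the tiles; medians are 18.2%, 19.0%, 70.4% and 68.3%.

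Among the 855 tiles with no CpG-dense tile within 2 tiles and 20 reads in every library, the 5 with the widest gap between Sca1-BCL6Δ B cells and the mean of the HSPC libraries were named. The same 5 had the widest gaps to Sca1-BCL6Δ HSPCs alone. The tile chr8:123301001-123302000 had 7.50% of 40 reads in Sca1-BCL6Δ B cells, 16.7% of 60 in wild-type B cells, 69.4% of 36 in Sca1-BCL6Δ HSPCs and 74.3% of 35 in wild-type HSPCs. The tile chr19:53517001-53518000 had 22.7% of 44, 15.5% of 58, 94.6% of 37 and 78.6% of 28 reads in the same libraries. Both HSPC libraries lay far above both B cell libraries in each. The tile chr16:30223001-30224000 had 9.68% of 93, 13.3% of 75, 78.8% of 66 and 60.9% of 46 reads. The tile chr7:90978001-90979000 had 6.90% of 29, 11.4% of 44, 74.1% of 27 and 57.1% of 21 reads. The exact conditional test of Sca1-BCL6Δ B cells against Sca1-BCL6Δ HSPCs, described below, did not call the chr8, chr16 or chr19:53517001-53518000 tile. Its adjusted p was 0.59 for the chr8 tile, 0.14 for chr19:53517001-53518000 and 0.074 for the chr16 tile. The chr7 tile had too few reads to be tested. The fifth, also on chromosome 19, was called by that test and is described with the other called tiles. The read counts again take shared reads more than once: over CpGs more than 50 bp apart, the chr16 tile had 21, 17, 14 and 12 reads.

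The test asked first whether the hypomethylated tiles differed between B cells and HSPCs that shared the Sca1-BCL6Δ genotype, since neither library had been used to choose them. Each tile was tested with an exact conditional test over CpGs more than 50 bp apart, two-sided, with Benjamini-Hochberg adjustment over all 66191 autosomal tiles tested. Calls required an adjusted p under 0.05 together with pooled levels at least 20 percentage points apart. Of 2669 hypomethylated tiles tested, 5 were called, all lower in Sca1-BCL6Δ B cells, and 0 were called higher. Over all tiles 0.0861% were called in either direction, 0.0332% lower and 0.0529% higher in Sca1-BCL6Δ B cells. An unadjusted p under 0.05 was found at 5.88% of the hypomethylated tiles and at 3.68% of all tiles. The median difference was -0.86 percentage points over the hypomethylated tiles tested and 0.00 over all tiles.

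Large differences were likewise mostly downward here. Among hypomethylated tiles with 20 summed reads in both libraries, 20 were at least 50 percentage points lower in Sca1-BCL6Δ B cells than in Sca1-BCL6Δ HSPCs and 2 at least 50 higher. Among all CpG-poor tiles with such reads, 39 were lower by that much and 72 higher. Low wild-type B cell levels chose the tiles, which leaves more room above than below, so the direction was not read further.

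The 5 called tiles held low levels in Sca1-BCL6Δ B cells and 44.4% or more in Sca1-BCL6Δ HSPCs. The tile chr19:38100001-38101000, with 4 CpGs, had 4.55% of 66 reads in Sca1-BCL6Δ B cells, 9.09% of 66 in wild-type B cells, 79.1% of 43 in Sca1-BCL6Δ HSPCs and 56.4% of 39 in wild-type HSPCs. Over CpGs more than 50 bp apart, 1 of 24 reads was methylated in Sca1-BCL6Δ B cells and 14 of 17 in Sca1-BCL6Δ HSPCs (Wilson 95% intervals 0.74 to 20.2% and 59.0 to 93.8%; adjusted p = 0.0016, exact conditional test). Its nearest CpG-dense tile lay 29 tiles away. Both B cell libraries were low and both HSPC libraries high.

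The tile chr3:129125001-129126000, with 2 CpGs, had 0 of 16 reads methylated in Sca1-BCL6Δ B cells, which allows a level of up to 18.8%. It had 25.9% of 27 reads in wild-type B cells, 92.3% of 13 in Sca1-BCL6Δ HSPCs and 64.7% of 17 in wild-type HSPCs (adjusted p = 0.0033 for Sca1-BCL6Δ B cells against Sca1-BCL6Δ HSPCs, exact conditional test). The tile chr5:112330001-112331000, with 3 CpGs, had 0 of 15 reads methylated in Sca1-BCL6Δ B cells, 21.9% of 32 in wild-type B cells, 78.3% of 23 in Sca1-BCL6Δ HSPCs and 60.0% of 15 in wild-type HSPCs (adjusted p = 0.017, exact conditional test). In Sca1-BCL6Δ B cells, CpGs more than 50 bp apart gave that tile 11 reads, which allow a level of up to 27.3%. In both tiles wild-type B cells lay between Sca1-BCL6Δ B cells and the HSPC libraries.

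The tile chr8:117432001-117433000, with 5 CpGs, had 14.3% of 49 reads in Sca1-BCL6Δ B cells, 9.71% of 103 in wild-type B cells, 73.5% of 34 in Sca1-BCL6Δ HSPCs and 42.2% of 64 in wild-type HSPCs (adjusted p = 0.034, exact conditional test). The tile chr11:118070001-118071000, with 4 CpGs, had 0 of 36 reads methylated in Sca1-BCL6Δ B cells, 12.3% of 57 in wild-type B cells, 44.4% of 27 in Sca1-BCL6Δ HSPCs and 30.8% of 26 in wild-type HSPCs (adjusted p = 0.027, exact conditional test). Its 20 Sca1-BCL6Δ B cell reads on CpGs more than 50 bp apart allow a level of up to 15%. With a minimum of 5 reads in the test, and thus more tiles tested, both calls were lost by the exact test, at adjusted p = 0.066 for the chr8 tile and 0.055 for the chr11 tile. With the deepest CpG alone the chr11 tile had an adjusted p of 0.27 and the chr8 tile could not be tested. The other 3 tiles kept their calls in every alternative on the same tile borders in which they could be tested.

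The second test set Sca1-BCL6Δ HSPCs against wild-type HSPCs, where again neither library had been used to choose the tiles. Of 2762 hypomethylated tiles tested, 2 were called, both higher in Sca1-BCL6Δ HSPCs, against a share of 0.0693% called over all 69230 tiles (0.0636% higher and 0.00578% lower). The median difference was -3.26 percentage points over the hypomethylated tiles tested and 6.61 over all tiles tested. An unadjusted p under 0.05 was found at 6.99% of the hypomethylated tiles and 11.3% of all tiles. Hypomethylated tiles thus lay slightly lower in Sca1-BCL6Δ HSPCs than in wild-type HSPCs, whereas the median of all tiles lay the other way. The wild-type HSPC library was lower than the Sca1-BCL6Δ HSPC library at CpGs methylated in B cells, as given above, and the part of this in the differences was not tested.

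The tile chr9:86617001-86618000 had 42.9% of 35 reads in Sca1-BCL6Δ HSPCs and 6.75% of 237 in wild-type HSPCs (Wilson 95% intervals 28.0 to 59.1% and 4.20 to 10.7%; adjusted p = 0.00054, exact conditional test). It had 13.9% of 72 reads in Sca1-BCL6Δ B cells and 6.90% of 449 in wild-type B cells, so Sca1-BCL6Δ HSPCs stood above the other 3 libraries. In the HSPC libraries all of its reads came from 1 CpG. The tile chr8:72663001-72664000 had 73.3% of 15 reads in Sca1-BCL6Δ HSPCs and 0.00% of 42 in wild-type HSPCs (adjusted p = 0.032, exact conditional test). The 34 wild-type HSPC reads on CpGs more than 50 bp apart allow a level of up to 8.82%. It had 14.3% of 7 reads in Sca1-BCL6Δ B cells and 14.6% of 41 in wild-type B cells. Its call by the exact test was lost with a minimum of 5 reads (adjusted p = 0.067) and with the CpGs of highest coverage left out (0.057). Methylated reads of Sca1-BCL6Δ HSPCs were also thinned at random, each kept as methylated with a probability of 0.88, the ratio of the mean HSPC levels given above. Both calls were lost in this draw (exact conditional test, adjusted p = 0.21 for the chr9 tile and 0.13 for the chr8 tile). The draw thinned the reads of all tiles, of which 0.0116% were called after it in place of 0.0693%. An adjusted p depends on all tiles tested, so its rise at these tiles does not come from their own reads alone. After this single random draw the difference was 21.8 percentage points at the chr9 tile (28.6% in Sca1-BCL6Δ HSPCs and 6.75% in wild-type HSPCs) and 66.7 at the chr8 tile (66.7% and 0.00%), so both stayed above 20 points. At the chr9 tile, from 42.9% to 28.6%, the draw removed more methylated reads than the rate removes on average. How that call fares over repeated draws was not tested.

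The remaining comparisons used the wild-type B cell library and are descriptions. In wild-type B cells against wild-type HSPCs the hypomethylated tiles with 20 reads in both had medians of 16.1% and 19.4%, and all CpG-poor tiles 94.2% and 75.9%. By the same test 144 of 5161 hypomethylated tiles were called, 143 lower and 1 higher in wild-type B cells, against 6.52% of all 149137 tiles (0.264% lower and 6.26% higher). In Sca1-BCL6Δ B cells against wild-type B cells the hypomethylated tiles had medians of 14.3% and 15.8%, and 1 of 3913 tested was called, higher in Sca1-BCL6Δ B cells, against 0.00573% of all 104622 tiles (0.00191% higher and 0.00382% lower). Nothing is read from these counts, since a low wild-type B cell level chose the tiles.

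A few tiles chosen for a low level in wild-type B cells were high in Sca1-BCL6Δ B cells. The 3 highest with 20 reads in every library were led by chr6:83086001-83087000, with 75% of 20 reads in Sca1-BCL6Δ B cells, 28.9% of 52 in wild-type B cells, 20% of 30 in Sca1-BCL6Δ HSPCs and 37.5% of 40 in wild-type HSPCs. Its CpGs lie so close that these came from 4, 11, 6 and 8 reads. The tile chr17:32251001-32252000 had 64.0% of 25, 24.6% of 69, 27.6% of 29 and 27.6% of 29 reads in the same libraries. Of its CpGs, 1 was high in all 4, at 91.7% of 12 reads, 75% of 12, 100% of 7 and 58.3% of 12, and without it the difference of Sca1-BCL6Δ from wild-type B cells was 24.4 percentage points in place of 39.4. The tile chr9:120249001-120250000 had 63.6% of 22, 25.4% of 59, 48.0% of 25 and 15.0% of 40 reads. The values of Sca1-BCL6Δ B cells in these tiles are extremes of 1752.

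The 3 tiles with the most reads in their shallowest library were low in all 4 libraries. The tile chr8:14292001-14293000 had 0.51% of 1763 reads in Sca1-BCL6Δ B cells, 1.30% of 1384 in wild-type B cells, 0.24% of 2060 in Sca1-BCL6Δ HSPCs and 0.58% of 2941 in wild-type HSPCs. Nearly all of these reads lay on 1 of its 2 CpGs, while the other was at 80% of 5 reads, 78.6% of 14, 100% of 3 and 66.7% of 12. The tile chr4:130381001-130382000 had 8.44% of 462, 7.93% of 479, 6.25% of 704 and 6.62% of 937 reads. The tile chr5:50031001-50032000 had 0.96% of 415, 6.67% of 360, 0.15% of 653 and 1.13% of 710 reads. A pooled level in such tiles describes the deep CpGs and not the tile as a whole.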

How the data were processed

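RRBS libraries of 4 pools of mice were used, 1 per condition. Libraries were made with MspI and TaqI digests and 18 cycles of PCR, per the labels' protocols. Alignment by the authors used a pipeline of Zymo Research, per the submitters' methods text, and was made to 36 bp at each end of in silico fragments between 40 and 220 bp long, from perfect 12-bp matches; its version is not given in the sources used here. The build was mm9, per the submitters' processing notes. No removal of PCR duplicates is recorded.

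The deposited CpG tables give methylated and total reads as a pair, and a score, the mean methylation per the file headers. The deposited read tables hold 1 line per read, with its count of CpGs and the methylated percent of these. Levels, shares and tests were computed from the paired reads, and read patterns from the read tables, with Python 3.11.15, NumPy 2.4.6, pandas 2.3.3, SciPy 1.17.1 and matplotlib 3.10.9.

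Tiles were tested where CpGs thinned to more than 50 bp apart had at least 10 reads in both libraries. Median coverage per CpG was 5 reads for Sca1-BCL6Δ B cells, 9 for wild-type B cells, 4 for Sca1-BCL6Δ HSPCs and 6 for wild-type HSPCs. Single tiles were named by rule: up to 5 called per direction and tested comparison with the largest difference, 5 without a CpG-dense tile within 2 tiles and with the widest gap from HSPCs to Sca1-BCL6Δ B cells, the 3 highest in Sca1-BCL6Δ B cells (both among tiles with 20 reads in every library), the 3 with the most reads in their shallowest library and up to 3 longest runs. The tiles, lists and rules were chosen with earlier results of these data known. No genome or gene annotation of mm9 was used, so genes and sequences are not given. Alternatives changed read minimum, level limit, averaging, CpG thinning, tile start, CpG number and test.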

Additional observations from a re-analysis of the deposited data

Results flagged for a closer look

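Among the named tiles that were called, had the widest gaps or were highest in Sca1-BCL6Δ B cells, 7 had differences of opposite sign in the 2 cell types or genotypes, of which at least 1 reached 20 percentage points. Smaller differences of opposite sign, and those in runs of adjacent tiles, are not counted here. Each of these tiles was named for a level or difference in libraries that also enter the differences given here. That choice favours opposite signs, so the signs are a description. Some of the opposing values were small, such as -0.35 and 0.15 percentage points. With 1 library per condition, whether these differences differ from each other was not tested.

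Sca1-BCL6Δ minus wild-type was -0.35 percentage points in B cells and 73.33 in HSPCs at chr8:72663001-72664000, -25.93 and 27.60 at chr3:129125001-129126000, and -21.88 and 18.26 at chr5:112330001-112331000. It was -4.55 in B cells and 22.66 in HSPCs at chr19:38100001-38101000, and 46.15 and -17.50 at chr6:83086001-83087000. B cells minus HSPCs was -59.05 percentage points in Sca1-BCL6Δ and 14.63 in wild-type libraries at chr8:72663001-72664000, -28.97 and 0.15 at chr9:86617001-86618000, 55.00 and -8.65 at chr6:83086001-83087000, and 36.41 and -2.95 at chr17:32251001-32252000. At chr6:83086001-83087000 the Sca1-BCL6Δ B cell value comes from 4 reads over CpGs more than 50 bp apart, and at chr8:72663001-72664000 from 7.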

How the results depend on the processing

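With a minimum of 10 reads, 82.09% of the tiles were under 30% in Sca1-BCL6Δ B cells, the medians were 15.38% in Sca1-BCL6Δ B cells, 16.67% in Sca1-BCL6Δ HSPCs and 20.45% in wild-type HSPCs, and 55.84% were low in all 4 libraries. With 40 reads, 3958 tiles met the criteria, these values were 93.14%, 11.63%, 11.36%, 17.07% and 83.33%, and 0.42% were low in B cells and at 50% or more in HSPCs. A limit of 20% chose 4658 tiles, with 93.02%, 11.92%, 12.63%, 16.67% and 76.79%, and a limit of 40% gave 80.55%, 16.67%, 17.14%, 22.06% and 57.01%. The mean of CpG levels gave 83.76% under 30%, a Sca1-BCL6Δ HSPC median of 16.05% and 60.07% low in all 4. CpGs more than 50 bp apart gave medians of 16.00%, 16.67% and 23.81% and 60.00% low in all 4. Tiles of 2 or 3 CpGs, 3717 in number, gave 83.75% under 30%, medians of 15.62% in Sca1-BCL6Δ B cells and 20.83% in wild-type HSPCs, and 63.45% low in all 4. Without the wild-type HSPC library, an alternative added after the data were seen, 78.71% were low in the rest (87.67% beside a low CpG-dense tile and 72.58% with none within 2 tiles) and 2.08% had the B cell pattern.

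In Sca1-BCL6Δ HSPCs against wild-type HSPCs, 1 of 4960 tiles was called with a minimum of 5 reads, 1 of 448 with 20 reads and 1 of 1513 with the deepest CpG alone (0.0192%, 0.25% and 0.0574% of all tiles). Without the CpGs of highest coverage 0 of 2722 were called, and 0 of 2762 after the single random thinning of Sca1-BCL6Δ HSPC reads given above. There the exact test called 0.0334% and 0.0116% of all tiles. In Sca1-BCL6Δ B cells against Sca1-BCL6Δ HSPCs, 3 of 4785 were called with 5 reads, 1 of 414 with 20 reads and 1 of 1451 with the deepest CpG (0.0285%, 0.158% and 0.0351% of all tiles). Fisher's exact test on counts pooled over all CpGs, which takes shared reads more than once, called 144 tiles (51 higher in Sca1-BCL6Δ HSPCs; 4.59% of all tiles) in the first comparison and 87 (11 higher in Sca1-BCL6Δ B cells; 1.09% of all tiles) in the second. Of 54 alternative values of the named tiles' differences, 51 were counted as within their spread, 3 as beyond it and 0 changed sign. That spread could be wide: at chr8:72663001-72664000 it held 57.14 and 81.43 percentage points, against 73.33 as reported. At chr11:118070001-118071000 it held -66.67 but not -33.33, against -44.44 as reported. At chr9:86617001-86618000 every alternative gave 36.11, the reported value. The 51 values therefore do not show that the differences are stable. Other causes were not tested. Median depth per tile over CpGs more than 50 bp apart was 8 to 14 reads in the 3 libraries tested; its part in the number of calls was not tested. No paired analysis was possible because each condition had 1 library.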
